A study of Mus musculus with 21 samples.

Results

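The question addressed here is how the effect of valproic acid before birth on gene expression in the dentate gyrus changed between postnatal day 5 (P5) and adulthood at 12 weeks. For each gene, the difference between VPA and control at 12 weeks was set against the difference between VPA and control at P5. The comparison used 12 of the 21 libraries of the series and 14200 of 24322 listed genes, those at 1 FPKM or more in at least 3 of the 12 libraries. FPKM is a level of sequenced fragments corrected for transcript length and library size. Of the 14200 genes, 75 (0.528%) passed the test of the difference. These 75 genes were sorted by the size of their VPA difference at each age into differences that faded, appeared or turned direction.

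Valproic acid (VPA) is an antiepileptic drug that inhibits histone deacetylases. All 4 groups were C57BL/6 mice carrying a Nestin-EGFP reporter, in which the Nestin promoter marks stem and progenitor cells with green fluorescent protein. Their mothers received oral methylcellulose (control) or VPA at 300 mg per kg per day on embryonic days 12, 13 and 14, and GFP-positive cells were sorted from the dentate gyrus at P5 or 12 weeks. Polyadenylated RNA was sequenced from 3 libraries each of control P5, VPA P5, control 12 weeks and VPA 12 weeks. The labels do not say whether libraries came from separate litters or from pooled animals, so the p-values measure the spread between these libraries, which may be technical.

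The dentate gyrus keeps producing granule neurons after birth from stem cells that express Nestin. A sort for a Nestin reporter can also collect newborn neurons that still hold the fluorescent protein, and cells of blood vessels, where Nestin is active as well. Immediate early genes are transcribed within minutes of a stimulus without new protein synthesis, and many of them encode transcription factors of the AP-1, EGR and NR4A families. In bulk libraries, fewer cells of a type and less RNA per cell cannot be told apart.

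Summed FPKM lay between 475775 and 492041 in the 6 P5 libraries and between 493082 and 537200 in the 6 libraries from 12 weeks. Genes above 0 FPKM numbered 17251 to 17601 per library at P5 and 13502 to 15210 at 12 weeks. Those above 0 but under 1 FPKM numbered 3930 to 4319 at P5 and 638 to 1677 at 12 weeks. Low levels were thus listed less often at 12 weeks, and the reason was not tested. Sequencing depth is unknown, because no counts were used here. Libraries of a group resembled each other less at 12 weeks. The median SD between replicates on the log2(FPKM + 1) scale was 0.0934 in control and 0.0921 in VPA at P5, against 0.336 and 0.352 at 12 weeks. Control libraries 1 and 2 at P5 held Ddx3y, a Y-linked gene, at 0 and 0.0129 FPKM, whereas the other 10 libraries held it at 6.42 to 22.7 FPKM. Xist, the RNA of the inactive X chromosome, stood at 317 and 308 FPKM in those 2 libraries and at 2.65 FPKM in control library 3. In the VPA libraries at P5 Xist stood at 0.149 to 20.0 FPKM, and in all 6 libraries from 12 weeks at 52.9 to 175 FPKM beside Ddx3y. Control libraries 1 and 2 thus stood apart from the other 4 P5 libraries in both transcripts, and all 6 libraries from 12 weeks held both. Nes, the gene whose promoter drives the reporter, was present in every library at 7.86 to 18.7 FPKM. Markers of newborn granule neurons summed to 3261 to 6281 FPKM per library.

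The VPA difference was higher at 12 weeks than at P5 in 38 genes (0.268%) and lower in 37 (0.261%), by limma with Benjamini-Hochberg adjusted p under 0.05. At an unadjusted p under 0.05, 1904 genes (13.4%) differed. Over all tested genes the median VPA difference was -0.00 at each age. A difference was counted as present at an age at 0.5 or more on the log2(FPKM + 1) scale. By this size, 13 of the 75 genes faded, with a larger difference at P5, 40 appeared, with a larger difference at 12 weeks, and 22 turned, with differences of 0.5 or more in opposite directions. Fading and appearing genes were told apart by the larger difference alone, even where neither reached 0.5. With a size of 0.25 the turning genes numbered 41, and with a size of 1 they numbered 4. Among all tested genes 23.8% were sorted as fading, 73.5% as appearing and 1.63% as turning. The median size of the VPA difference, regardless of sign, was 0.112 at P5 and 0.293 at 12 weeks. Replicates also differed more at 12 weeks, and a sort by the larger difference favours the age with the larger spread. The opposite signs of the 22 genes are partly a product of the test, which selects genes whose differences are far apart.

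VPA and control libraries did not overlap at P5 in all 22 turning genes and did not overlap at either age in 20 of them. Over all tested genes, groups did not overlap at P5 in 28.9%, at 12 weeks in 15% and at both ages in opposite directions in 2.61%. The turning genes were selected for large opposite differences in these same libraries, so their lack of overlap is tied to the sorting. In the same fit, 18 genes (0.127%) differed between VPA and control at P5 and 695 (4.89%) at 12 weeks. That fit used a shared spread per gene for both ages, although replicates differed more at 12 weeks. Relative to each age's own spread, the single-age tests were strict at P5 and lenient at 12 weeks. Their counts are therefore not comparable between ages, and the single-age p-values below carry the same limit. Each of the 18 genes that differed at P5 also passed the test of the change with age, as did 52 of the 695 genes that differed at 12 weeks. Of the turning genes, Fosb and Jun passed the test at both ages.

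**Figure D1:**
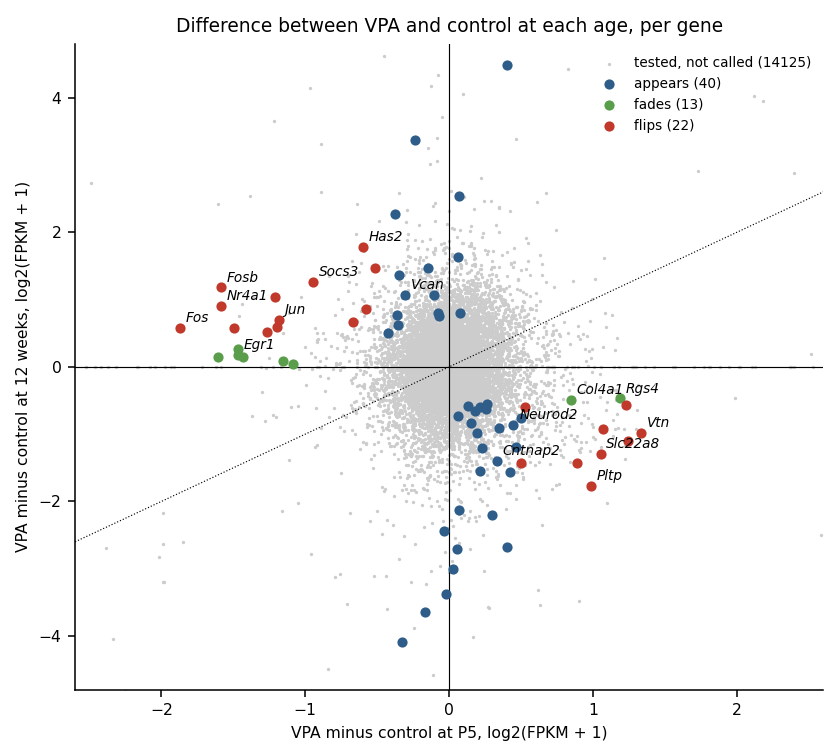
Each point is 1 gene, with the VPA difference at P5 on the x axis and at 12 weeks on the y axis, both on the log2(FPKM + 1) scale; the dotted line marks equal differences, and 5 fading microRNA genes lie beyond the x axis. Turning genes occupy the upper left and lower right corners, and appearing genes lie along the vertical axis.

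The number of calls depended on treating both ages as equally variable. With weights that let the 2 ages differ in spread, 3 genes passed, all microRNA genes (Mir3060, Mir344-2 and Mir6976). In that fit 75 of the 75 genes had an unadjusted limma p under 0.05. These weights leave each gene's differences unchanged, so no direction could change. Without both P5 control libraries lacking Ddx3y, which leaves 1 control at P5, 1 gene passed and the 71 of the 75 genes still tested all kept their direction at an unadjusted p under 0.05. Each library had weight as well: leaving out 1 P5 library gave 9 to 19 higher and 7 to 15 lower genes, and leaving out 1 library from 12 weeks gave 26 to 195 higher and 19 to 238 lower genes, with the most without control library 1. No called gene changed direction in these omissions, and 19 of 75 kept their call in every omission that tested them. Among the genes described below these were Fos, Fosb, Jun, Junb, Klf6, Egr2, Nr4a1, Cntnap2, Prdm8, Sepp1, Sap25, Slc22a8, Mir6976, Mir7006, Mir3060 and Mir344-2. Vtn kept its call in 4 of 12 omissions, Abcc9 in 3, Islr and Calb2 in 5 and Neurod2 in 6.

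Of the 22 turning genes, 7 were immediate early genes, and 5 more of these genes faded. Of 37 tested members of a list of 38, 12 passed the test, all with a higher VPA difference at 12 weeks, against 0.268% of all genes. The list's median VPA difference was -0.79 at P5 and 0.28 at 12 weeks, and its median change with age was 1.22, against 0.00 over all genes. At P5, 35 of 37 members were lower with VPA, 30 of them without overlap between the groups, against 14.9% of all genes. At 12 weeks 29 of 37 were higher with VPA, 10 of them without overlap, against 7.6% of all genes. The same 10 members were non-overlapping in both directions, against 1.13% of all genes. Summed over the list, levels ran from 2114 to 2434 FPKM in control and from 865 to 1106 FPKM in VPA at P5. At 12 weeks they ran from 2493 to 3393 FPKM in control and from 3624 to 3883 FPKM in VPA. The list and these members were known from earlier work on these libraries, so the counts are a description.

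The 250 bases before the start site of 4 of these genes are shown because the genes moved together; capitals mark TGACG on either strand, the core of the element bound by CREB-family factors. Fos lies on the plus strand at chr12:85473640-85473889, Fosb on the minus strand at chr7:19310046-19310295, Nr4a1 on the plus strand at chr15:101266596-101266845 and Jun on the minus strand at chr4:95052223-95052472, from RefSeq on GRCm38.p6.
Fos: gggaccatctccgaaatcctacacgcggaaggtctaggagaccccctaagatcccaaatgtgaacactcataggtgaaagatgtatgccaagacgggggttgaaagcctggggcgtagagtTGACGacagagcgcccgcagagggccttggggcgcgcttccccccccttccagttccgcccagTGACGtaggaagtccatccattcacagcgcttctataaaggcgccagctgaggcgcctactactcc
Fosb: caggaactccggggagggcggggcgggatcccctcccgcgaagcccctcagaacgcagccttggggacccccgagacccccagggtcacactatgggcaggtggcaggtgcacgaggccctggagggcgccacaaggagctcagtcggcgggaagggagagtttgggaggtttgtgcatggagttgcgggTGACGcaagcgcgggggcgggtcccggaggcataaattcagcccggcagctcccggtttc
Nr4a1: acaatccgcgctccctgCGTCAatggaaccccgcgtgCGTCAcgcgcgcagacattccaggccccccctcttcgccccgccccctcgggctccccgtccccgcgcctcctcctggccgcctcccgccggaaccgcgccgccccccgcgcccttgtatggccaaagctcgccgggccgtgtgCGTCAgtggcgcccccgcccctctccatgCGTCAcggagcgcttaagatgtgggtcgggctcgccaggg
Jun: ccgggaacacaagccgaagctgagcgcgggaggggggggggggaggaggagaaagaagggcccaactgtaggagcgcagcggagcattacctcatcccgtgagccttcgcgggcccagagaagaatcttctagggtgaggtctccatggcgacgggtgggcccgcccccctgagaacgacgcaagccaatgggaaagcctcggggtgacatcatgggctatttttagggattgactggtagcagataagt
TGACG began 129 and 66 bases before the start in Fos and 60 bases before it in Fosb, and Nr4a1 held it 4 times. The window of Jun held no TGACG, nor did that of Klf6. Of the 12 called members, 9 had a promoter in the table (all but Cyr61, Egr1 and Ier2), and TGACG was in the window from 250 bases before to 50 bases after the start in 7 of 9 (77.8%). It was found in 35.0% of the 10543 tested genes with a promoter there. Among called genes with a lower VPA difference at 12 weeks it was in 9 of 24 (37.5%). Counted by promoter, TGACG was in 9 of 13 (69.2%), with 5 promoters for Egr2, against 30.1% for tested genes. Other motifs were scanned as well. In the 9 called members the full element TGACGTCA was in 1, the AP-1 motif TGANTCA in 0 and the CArG box in 1. Their shares among tested genes were 3.6%, 5.9% and 1.6%. By promoter, the CArG box was in 4 of 13 (30.8%), all of them promoters of Egr2, against 1.3% for tested genes. Sites further than 250 bases before the start were not scanned. A match in these letters is a description and no evidence of binding.

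Fos, a subunit of AP-1, stood at 627, 733 and 669 FPKM in the control libraries at P5 and at 148, 188 and 224 FPKM with VPA. At 12 weeks Fos was at 655, 466 and 496 FPKM in control and 800.3, 714 and 882 FPKM with VPA. The groups did not overlap at either age, and the order of the groups turned. The VPA difference of Fos was -1.87 ± 0.17 (SE, n = 3) at P5 (limma adjusted p = 0.000756) and 0.58 ± 0.17 at 12 weeks (adjusted p = 0.0761), a change of 2.45 ± 0.24 (adjusted p = 0.00165). The change in Fos had an adjusted p of 0.119 with weights by age.

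Fosb, another FOS-family subunit, stood at 37.5, 39.4 and 30.6 FPKM in control and 8.99, 11.1 and 14 FPKM with VPA at P5. At 12 weeks it was at 78.7, 64.2 and 73.7 FPKM in control and 166, 125 and 213 FPKM with VPA. All VPA libraries lay below the controls at P5 and above them at 12 weeks. The VPA difference was -1.59 ± 0.20 at P5 and 1.18 ± 0.20 at 12 weeks, and it passed at both ages (limma adjusted p = 0.00727 and 0.0139). The change of 2.77 ± 0.28 was the largest of the list (adjusted p = 0.00218, and 0.119 with weights by age).

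Jun, the partner of FOS proteins in AP-1, was chosen after its values were seen, as were Klf6 and Klf4. It stood at 123, 155 and 142 FPKM in control and 53.9, 55.9 and 74.7 FPKM with VPA at P5, and at 303, 256 and 243 FPKM in control and 422, 415 and 465 FPKM with VPA at 12 weeks. Jun thus had non-overlapping groups at both ages, in opposite order. Its VPA difference was -1.18 ± 0.14 at P5 (limma adjusted p = 0.00447) and 0.70 ± 0.14 at 12 weeks (adjusted p = 0.0235), with a change of 1.89 ± 0.20 (adjusted p = 0.00257).

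Nr4a1, an orphan nuclear receptor, stood at 122, 143 and 133 FPKM in control and 31.1, 45.3 and 57.9 FPKM with VPA at P5. At 12 weeks the controls held 77.1, 74.2 and 46.2 FPKM and the VPA libraries 100.4, 127 and 140.3 FPKM. The groups were again apart at both ages in opposite order, with a change of 2.49 ± 0.34 (limma adjusted p = 0.00977). Cyr61, which encodes a matricellular protein, went from 43.6 to 55.6 FPKM in control and 13.2 to 27 FPKM with VPA at P5, to 24 to 38.5 FPKM in control and 46.5 to 76.3 FPKM with VPA at 12 weeks. Its change was 2.25 ± 0.39 (limma adjusted p = 0.0346). The Krüppel-like factors Klf6 and Klf4 turned as well, with changes of 1.78 (limma adjusted p = 0.0042) and 1.79 (adjusted p = 0.0346).

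**Figure D2:**
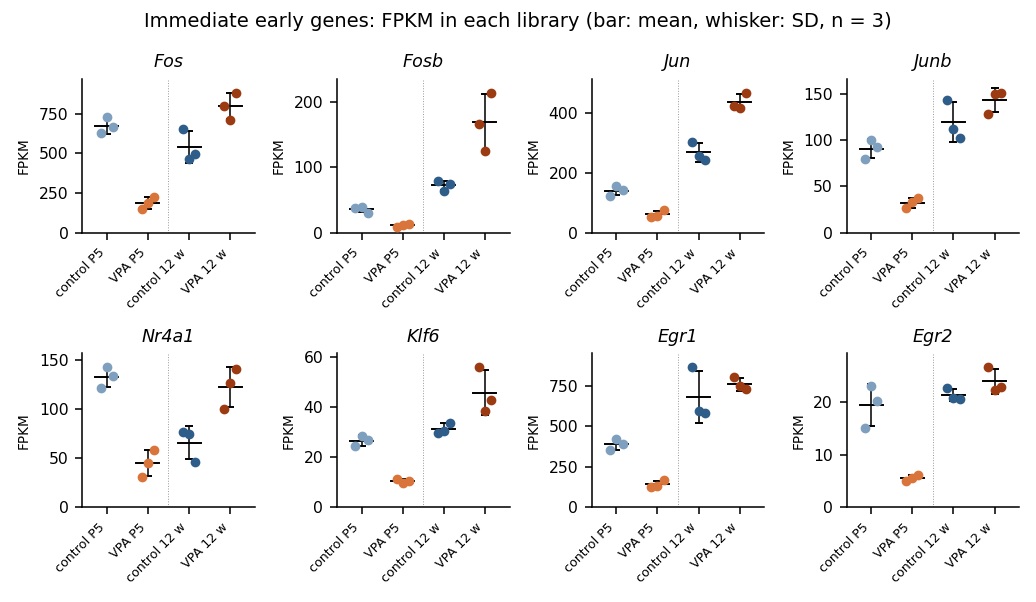
FPKM of 8 immediate early genes in each library (points), with the group mean (bar) and SD (whisker, n = 3), by group along the x axis. At P5 every VPA library lies below every control library in each of the 8 genes; at 12 weeks the VPA libraries lie above the controls in Fos, Fosb, Jun, Nr4a1 and Klf6 and overlap them in Junb, Egr1 and Egr2.

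In the other 5 called members the lower level at P5 had no counterpart of 0.5 or more at 12 weeks. Egr1, a zinc finger transcription factor, stood at 355, 423 and 391 FPKM in control and 126, 131 and 165 FPKM with VPA at P5. At 12 weeks Egr1 was at 867, 595 and 585 FPKM in control and 808, 748 and 729.6 FPKM with VPA. Its groups were apart at P5 and overlapped at 12 weeks, with VPA differences of -1.47 ± 0.16 (limma adjusted p = 0.00228) and 0.18 ± 0.16 (adjusted p = 0.529). Egr2, another EGR factor, stood at 15 to 23 FPKM in control and 5.03 to 6.21 FPKM with VPA at P5, and at 20.7 to 22.8 and 22.4 to 26.7 FPKM at 12 weeks. Junb, another AP-1 subunit, stood at 80.1 to 100.3 FPKM in control and 26.6 to 37.3 FPKM with VPA at P5, and at 103 to 144 and 129 to 151 FPKM at 12 weeks. The changes were 1.65 ± 0.23 for Egr1, 1.76 ± 0.23 for Egr2 and 1.74 ± 0.22 for Junb (limma adjusted p = 0.0112, 0.00826 and 0.00682). Ier2 changed by 1.24 and Btg2, an antiproliferative gene of neuron-producing progenitors, by 1.12 (limma adjusted p = 0.0123 and 0.0356). Btg2 was also on the list of intermediate progenitor markers, the other 14 tested members of which did not pass.

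The 25 members that did not pass had changes from -1.16 in Egr4 to 2.39 in Maff. Atf3, a stress-induced CREB-family factor, changed by 2.21 (limma adjusted p = 0.0951), Maff by 2.39 (adjusted p = 0.0595) and Dusp1, a MAP kinase phosphatase, by 1.29 (adjusted p = 0.0635). In 8 of the 12 called members, P5 control library 3, the one with Y-linked transcripts, lay between the other 2 controls. The position of 1 library cannot tell a difference tied to these transcripts apart from the spread between libraries. With a covariate for the libraries without Ddx3y, 3 members passed: Fos, Fosb and Jun. With weights by age the list had 0 calls by limma and 26 members at an unadjusted p under 0.05. Without both P5 controls lacking Ddx3y it had 0 calls and 24 members at an unadjusted p under 0.05, with a change in Fos of 2.44 (limma adjusted p = 0.0944), in Fosb of 2.56 (0.134) and in Jun of 1.92 (0.0944). The growth factor feedback list, with genes such as the ETS factor Etv4 and the receptor inhibitor Spry2, had 17 tested genes. In limma 0 of them passed, against 0.528% of all genes. Their median VPA difference was -0.18 at P5 and 0.44 at 12 weeks.

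Bhlhe40, a transcriptional repressor of clock genes, faded in the same direction as the EGR genes. It stood at 31.1, 37.9 and 33.9 FPKM in control and 10.2, 12.2 and 13.9 FPKM with VPA at P5, and at 10.6, 14.4 and 12.8 FPKM in control and 14.9, 13.8 and 13.1 FPKM with VPA at 12 weeks. The groups were apart at P5 only, and the change was 1.58 ± 0.22 (limma adjusted p = 0.0112).

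Has2, which makes the matrix polysaccharide hyaluronan, stood at 8.57, 7.94 and 6.11 FPKM in control and 4.17, 5.39 and 4.29 FPKM with VPA at P5. At 12 weeks it stood at 2.13, 0.791 and 0.631 FPKM in control and 6.34, 4.31 and 8.65 FPKM with VPA. The groups did not overlap at either age, and the change was 2.39 ± 0.42 (limma adjusted p = 0.0356). Socs3, an inhibitor of cytokine signalling through JAK and STAT proteins, stood at 31.9 to 40.8 FPKM in control and 14.7 to 20.0 FPKM with VPA at P5, and at 8.82 to 15.8 FPKM in control and 22.2 to 44.7 FPKM with VPA at 12 weeks. It changed by 2.21 ± 0.37 without overlap at either age (limma adjusted p = 0.028). Adamts1 (a secreted protease), Zfp36l1 (an mRNA decay factor) and Bcl6 (a repressor with a role in neurogenesis), named after their values were seen, changed by 2.08, 1.33 and 1.44. The last 2 had groups apart at both ages, and Adamts1 overlapped at 12 weeks.

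Most genes whose VPA difference appeared at 12 weeks were lower with VPA there: 25 of the 40 had a lower and 15 a higher VPA difference at 12 weeks. All 40 passed the test between VPA and control at 12 weeks and had non-overlapping groups at that age, against 15% of all genes, a result tied to the sorting. In 21 of the 40 the groups also did not overlap at P5, against 28.9% of all genes. Appearing thus does not mean absent at P5. Cntnap2, a neurexin-family adhesion protein linked to autism (chromosome 6, 45059357 to 47304213, plus strand), stood at 20.6, 21 and 23.3 FPKM in control and 23.9, 31.4 and 27.3 FPKM with VPA at P5. At 12 weeks Cntnap2 was at 22.3, 29.6 and 22.3 FPKM in control and 9.42, 8.88 and 7.74 FPKM with VPA. VPA libraries lay above the controls at P5 and below them at 12 weeks, with differences of 0.33 ± 0.15 (limma adjusted p = 1) and -1.40 ± 0.15 (adjusted p = 0.00228). The change was -1.73 ± 0.22 (adjusted p = 0.00572, and 0.119 with weights by age). Without both P5 controls lacking Ddx3y it was -1.63 (limma adjusted p = 0.298). It was the 1 member of 19 tested autism-linked adhesion genes that passed, against 0.261% of all genes that passed as lower, and the list's median VPA difference went the other way, from 0.02 at P5 to 0.39 at 12 weeks.

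Markers of newborn granule neurons were lower with VPA in 20 of 21 tested members at 12 weeks and in 6 of 21 at P5. The change with age passed in 2 of the 21, Neurod2 and Calb2, both lower at 12 weeks, against 0.261% of all genes. The list's median was 0.09 at P5 and -0.38 at 12 weeks. At 12 weeks 12 members were lower without overlap, against 7.42% of all genes. Its summed level ran from 5507 to 6224 FPKM in control and 5953 to 6281 FPKM with VPA at P5, and from 4499 to 5191 FPKM in control and 3261 to 3761 FPKM with VPA at 12 weeks. Thus the sums overlapped at P5 and were apart at 12 weeks. Neurod2, a transcription factor of neuronal differentiation, stood at 46, 43.6 and 53.4 FPKM in control and 54.1, 76.4 and 66.6 FPKM with VPA at P5. At 12 weeks it stood at 39.5, 38 and 39.1 FPKM in control and 24.3, 17.4 and 21.7 FPKM with VPA. Its groups were apart at both ages in opposite order, with a change of -1.31 ± 0.21 (limma adjusted p = 0.028), and of -1.14 without both P5 controls lacking Ddx3y (adjusted p = 0.652). Calb2 (calretinin), a calcium-binding protein of immature granule neurons, stood at 408, 386 and 419 FPKM in control and 473, 481 and 505 FPKM with VPA at P5, and at 285, 293 and 302 FPKM in control and 211, 212 and 179 FPKM with VPA at 12 weeks. The VPA difference of Calb2 changed by -0.82 ± 0.13 (limma adjusted p = 0.0265). Neurod1, a related factor that did not pass, changed by -1.01 (limma adjusted p = 0.0760).

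Prdm8, a transcriptional repressor of neurons, and Sepp1, a selenium carrier, were named after their values were seen. Prdm8 stood at 75.1 to 84.4 FPKM in control and 84.6 to 92.1 FPKM with VPA at P5, and at 56.4 to 64 FPKM in control and 33 to 33.4 FPKM with VPA at 12 weeks. Sepp1 stood at 21.2 to 25 FPKM in control and 30.4 to 35.5 FPKM with VPA at P5, and at 100.1 to 115 FPKM in control and 57.3 to 65.4 FPKM with VPA at 12 weeks. In both genes VPA libraries lay above the controls at P5 by a small margin and below them at 12 weeks. The changes were -0.99 ± 0.12 and -1.26 ± 0.15 (limma adjusted p = 0.00572 and 0.00522). The Wnt pathway list had 2 members that passed of 26 tested, both lower at 12 weeks, against 0.261% of all genes: Dkk3, a secreted Dickkopf-family protein, and Notum, an enzyme that inactivates Wnt ligands. Dkk3 stood at 29.5 to 33.8 FPKM in control and 39.3 to 42.6 FPKM with VPA at P5, and at 28.9 to 40.004 FPKM in control and 15.7 to 23.2 FPKM with VPA at 12 weeks, a change of -1.25 (limma adjusted p = 0.0386). Wscd2 changed by -1.76 (limma adjusted p = 0.0376). Rtn4r, the Nogo receptor that limits axon growth, and Islr2, a neuronal membrane protein, also named after their values were seen, turned by -1.94 and -1.13 without overlap at either age. Gpr12, an orphan receptor, turned by -2.31 at low levels (limma adjusted p = 0.0414), with 0, 0.483 and 0 FPKM in VPA libraries at 12 weeks.

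**Figure D3:**
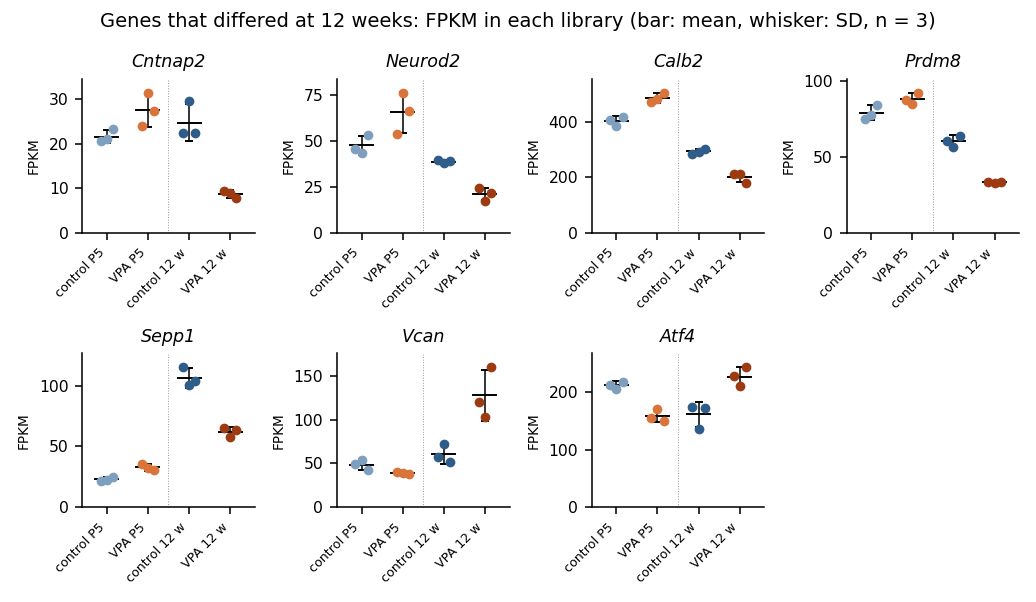
FPKM of 7 genes sorted as appearing, in each library (points), with the group mean (bar) and SD (whisker, n = 3), by group along the x axis. In Cntnap2, Neurod2, Calb2, Prdm8 and Sepp1 the VPA libraries lie above the controls at P5 and below them at 12 weeks, and in Vcan and Atf4 the order is the reverse.

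Vcan and Atf4 were among the 15 genes sorted as appearing with a higher VPA difference at 12 weeks. Vcan, the proteoglycan versican, chosen after its values were seen, stood at 49.6, 53.9 and 42.3 FPKM in control and 39.7, 39 and 37.9 FPKM with VPA at P5. At 12 weeks it stood at 57.2, 72.6 and 51.1 FPKM in control and 119.9, 103 and 160.0 FPKM with VPA. The groups were apart at both ages, and the change was 1.37 ± 0.24 (limma adjusted p = 0.0346). Atf4, the transcription factor of the integrated stress response, stood at 213, 206 and 219 FPKM in control and 156, 171 and 149.5 FPKM with VPA at P5, and at 175, 137 and 174 FPKM in control and 228, 211 and 244 FPKM with VPA at 12 weeks. Its groups were apart at both ages, with a change of 0.92 ± 0.16 (limma adjusted p = 0.0346). The VPA differences of Atf4 were -0.42 at P5 and 0.496 at 12 weeks, so neither reached 0.5. Atf4 was the 1 member of 20 tested genes of the ER chaperone and unfolded protein response list that passed, against 0.268% of all genes that passed as higher; 18 of the 20 had a higher VPA difference at 12 weeks, with medians of -0.36 at P5 and 0.08 at 12 weeks.

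Oligodendrocyte precursor markers moved beside Vcan, which these precursors also express. All 13 tested members were higher with VPA at 12 weeks, 9 of them without overlap, against 7.6% of all genes, while 7 of 13 were higher at P5. The summed level overlapped at P5, at 765 to 951 FPKM in control and 817 to 913 FPKM with VPA, and was apart at 12 weeks, at 1570 to 2397 FPKM in control and 2838 to 4154 FPKM with VPA. For the change with age, 0 of 13 passed in limma, against 0.528% of all genes. Epn2 changed by 0.98 (limma adjusted p = 0.0823) and Bcas1 by 1.29 (adjusted p = 0.144), with median differences over the list of 0.10 at P5 and 0.94 at 12 weeks. The part of these markers in the change of Vcan was not tested.

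Markers of pericytes, the contractile cells of small vessels, were higher with VPA at P5 and lower at 12 weeks. All 17 tested members were higher with VPA at P5, and 16 of 17 were lower at 12 weeks, with medians of 0.72 and -0.68. Groups did not overlap at P5 and again, in the opposite order, at 12 weeks in 2 of 17, against 1.49% of all genes. Vtn and Abcc9 passed, against 0.261% of all genes. Vtn, the adhesion glycoprotein vitronectin, stood at 20.1, 16.6 and 21.1 FPKM in control and 57.3, 54 and 39.7 FPKM with VPA at P5. At 12 weeks Vtn was at 636, 1247 and 1476 FPKM in control and 406, 654 and 571 FPKM with VPA. The groups were apart at P5 and overlapped at 12 weeks, where control library 1 lay below VPA library 2. The VPA difference was 1.33 ± 0.29 at P5 (limma adjusted p = 0.322) and -0.98 ± 0.29 at 12 weeks (adjusted p = 0.0747), with a change of -2.31 ± 0.41 (adjusted p = 0.0346). Without both P5 controls lacking Ddx3y the change of Vtn was -2.18 (limma adjusted p = 0.652). Abcc9, a subunit of the ATP-sensitive potassium channel, stood at 3.95, 3.16 and 3.89 FPKM in control and 12.2, 9.29 and 5.85 FPKM with VPA at P5. It stood at 26.8, 29.99 and 46.6 FPKM in control and 13.9, 19.1 and 19.2 FPKM with VPA at 12 weeks. Its groups were apart at both ages, with a change of -1.99 ± 0.38 (limma adjusted p = 0.0487). Pdgfrb, the receptor that marks pericytes, changed by -1.90 and did not pass (limma adjusted p = 0.0571).

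Connective tissue and endothelial markers ran the same way. Islr was the 1 called gene of 14 tested fibroblast markers, against 0.261% of all genes called as lower. Islr stood at 8.87, 8.96 and 9.29 FPKM in control and 12.6, 11.3 and 13.6 FPKM with VPA at P5, and at 15.5, 25.5 and 17.7 FPKM in control and 6.43, 8 and 3.69 FPKM with VPA at 12 weeks. The groups of Islr were apart at both ages and the change was -1.99 ± 0.35 (limma adjusted p = 0.0346). The fibroblast list had medians of 0.64 at P5 and -0.76 at 12 weeks. Of 17 tested endothelial markers 0 passed in limma, against 0.528% of all genes, with medians of 0.32 at P5 and -1.11 at 12 weeks. Esam, a junction protein of endothelium, changed by -1.94 (limma adjusted p = 0.0595). Of 17 tested microglia and macrophage markers 0 passed, against 0.528% of all genes, with medians of 0.55 and -0.43. Without overlap, 8 of the 17 were higher with VPA at P5, against 14% of all genes. At 12 weeks 0 of them had groups apart, against 15% of all genes. Their sums there were 574, 97.5 and 149.9 FPKM in control and 154, 159 and 135 FPKM with VPA. Without control library 1 at 12 weeks their median change was -0.36 in place of -1.09. Col4a1, a collagen of basement membranes, stood at 18.9, 19.6 and 21 FPKM in control and 41.8, 33.9 and 34.1 FPKM with VPA at P5, and at 22.7, 26.7 and 31.4 FPKM in control and 19.5, 19.6 and 17 FPKM with VPA at 12 weeks. Col4a1 changed by -1.34 ± 0.20 (limma adjusted p = 0.0173), with groups apart at both ages. Rgs4, which shortens signalling through G proteins, stood at 8.41, 8.23 and 10.7 FPKM in control and 24.9, 23.7 and 17.6 FPKM with VPA at P5. At 12 weeks Rgs4 overlapped, at 76.2 to 114 FPKM in control and 56.6 to 78.4 FPKM with VPA, and its change was -1.65 ± 0.27 (limma adjusted p = 0.0274).

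Slc22a8, an organic anion transporter, stood at 0.797, 0.59 and 0.713 FPKM in control and 3.23, 2.67 and 1.82 FPKM with VPA at P5, and at 16.7, 24.7 and 23.1 FPKM in control and 7.18, 8.4 and 8.58 FPKM with VPA at 12 weeks. It was apart at both ages, with a change of -2.35 ± 0.31 (limma adjusted p = 0.00841). Pltp, the phospholipid transfer protein, ran from 3.24 to 3.92 FPKM in control and 7.12 to 9.06 FPKM with VPA at P5, and from 55 to 175 FPKM in control and 20.2 to 42.8 FPKM with VPA at 12 weeks. Its change was -2.75 ± 0.52 (limma adjusted p = 0.0487). Notum ran from 2.19 to 2.81 FPKM in control and 5.96 to 8.06 FPKM with VPA at P5, and from 2.95 to 5.41 FPKM in control and 0.796 to 2.54 FPKM with VPA at 12 weeks, a change of -2.34 (limma adjusted p = 0.0346). Slc6a20a, a proline transporter named after its values were seen, changed by -1.80 (limma adjusted p = 0.0356).

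**Figure D4:**
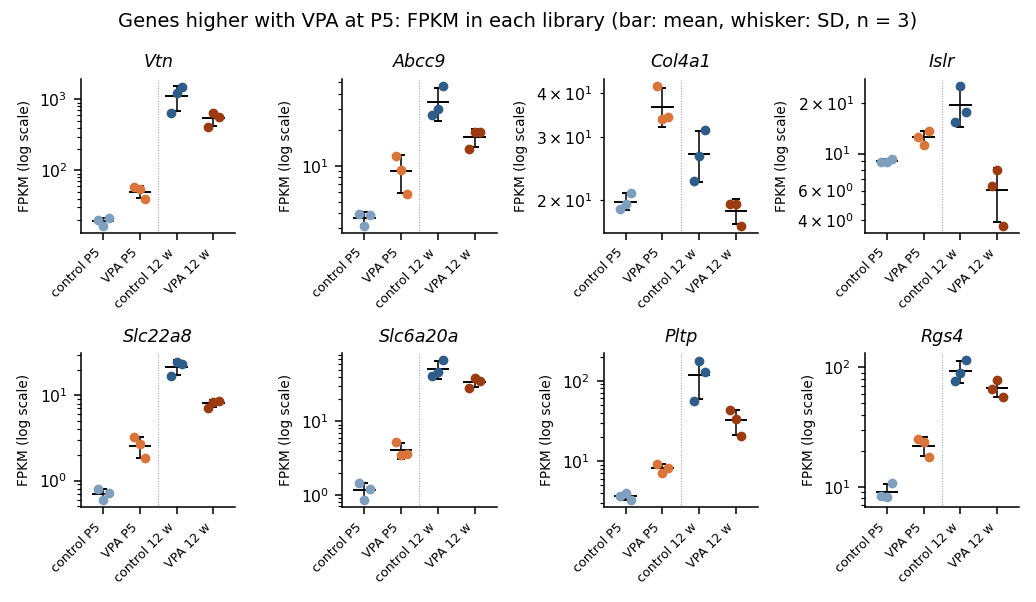
FPKM of 8 genes that were higher with VPA at P5, on log axes, in each library (points), with the group mean (bar) and SD (whisker, n = 3), by group along the x axis. VPA libraries lie above controls at P5 in all 8 genes and below them at 12 weeks in all but Vtn and Rgs4, whose groups overlap.

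The summed levels of pericyte, endothelial and fibroblast markers were higher with VPA at P5 without overlap; at 12 weeks the endothelial sum was lower and the fibroblast sum higher with VPA. Pericyte markers summed to 160.4 to 185 FPKM in control and 228 to 399 FPKM with VPA at P5, and to 1346 to 2838 FPKM in control and 965 to 1362 FPKM with VPA at 12 weeks, where the groups overlapped. Endothelial markers summed to 38.5 to 43.1 and 56.9 to 62.3 FPKM at P5, and to 576 to 816 and 276 to 510.1 FPKM at 12 weeks. Fibroblast markers summed to 67.9 to 84.3 and 119 to 137 FPKM at P5, and to 224 to 304 and 322 to 459 FPKM at 12 weeks, where the sum went against the list's median. At that age 12 of the 14 tested fibroblast markers were lower with VPA. Pdgfra, which is also on the oligodendrocyte precursor list, had the highest change of the fibroblast list (0.55). The part of Pdgfra in the higher sum was not tested. No pericyte, endothelial or fibroblast marker stood at 0 in all 12 libraries. The part of these cell types in the changes of Vtn, Abcc9, Islr and Col4a1 was not tested. Erythroid markers summed to 1339 to 1762 FPKM in control and 185 to 718 FPKM with VPA at P5, to 14.1 to 1459 FPKM in control and 15.9 to 169 FPKM with VPA at 12 weeks, and Hba-x and Hbb-y stood at 0 in all 12. At P5 the erythroid sum was lower with VPA, as was the immediate early sum, and at 12 weeks the groups overlapped. Its part in the immediate early genes was not tested.

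Some changes rested on levels listed at 0, which in FPKM files can be a failed estimate. Of the 75 genes, 13 were listed at 0 in all 3 libraries of at least 1 group, and the fitted difference of such a gene is no bound on the change. By group these were 1 gene in control and 4 in VPA at P5, and 7 and 11 at 12 weeks. The 5 microRNA genes described below count in both groups at 12 weeks. Fewer genes were listed above 0 in all libraries of that age. Sap25, a SIN3-associated protein gene, was listed at 0 in all 3 controls at 12 weeks and at 12.6, 11.7 and 5.35 FPKM with VPA, and it overlapped between 5.25 and 10.7 FPKM at P5. Riiad1 and Pfn4 were listed at 0 in all 3 VPA libraries at 12 weeks. Their controls there ran from 5.38 to 20.2 FPKM and from 2.91 to 13.3 FPKM, and their P5 groups overlapped. Fam212a was at 5.06 to 7.75 FPKM in control and 0, 0.666 and 0 FPKM with VPA at 12 weeks. Ankrd37, a gene induced in hypoxia, was at 0.205, 0 and 0.263 FPKM in control and 5.01, 8.31 and 4.38 FPKM with VPA at 12 weeks. Slc19a3, a thiamine transporter, stood at 4.07 to 7.96 FPKM in control and 0.385 to 0.946 FPKM with VPA at 12 weeks, and at 0 to 0.145 FPKM in the 6 libraries at P5. All 6 of these genes passed (limma adjusted p from 0.00522 to 0.0397).

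The fading genes included 5 microRNA genes, whose short products a polyadenylated library captures poorly. Mir6976 was listed at 186, 495 and 244 FPKM in the controls at P5 and at 0 in the other 9 libraries, and Mir3060, Mir344-2 and Mir27b had the same pattern. Mir7006 was listed at 523, 58 and 133 FPKM in the VPA libraries at P5 and at 0 elsewhere. These 5 genes were listed at 0 in both groups at 12 weeks, so their change was set by P5 alone.

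Of 24 tested stem cell markers 0 passed in limma, against 0.528% of all genes. In this and the other lists without a call, 0 is close to that share and sets the list apart from no other. The stem cell medians were -0.29 at P5 and -0.48 at 12 weeks, and 23 of 24 were lower with VPA at P5 and 18 of 24 at 12 weeks. Nes stood at 13.1, 13.4 and 11.5 FPKM in control and 11.1, 9.89 and 10.1 FPKM with VPA at P5, and at 10.6, 15.5 and 18.7 FPKM in control and 12.4, 7.86 and 10.2 FPKM with VPA at 12 weeks. Its groups were apart at P5 and overlapped at 12 weeks, and the change was -0.24 ± 0.30 (limma adjusted p = 0.780). Sox2, a transcription factor that maintains stem cells, changed by 0.49 ± 0.26 (limma adjusted p = 0.464). Cxcr4, the chemokine receptor that guides migrating progenitors, stood at 67.4, 53.2 and 54.2 FPKM in control and 60.3, 67.1 and 60.7 FPKM with VPA at P5. At 12 weeks Cxcr4 was at 58.2, 45.7 and 36.9 FPKM in control and 15, 30.5 and 27.2 FPKM with VPA. Cxcr4 was thus lower with VPA at 12 weeks without overlap (limma adjusted p = 0.0455), and its change with age of -1.07 ± 0.34 did not pass (adjusted p = 0.201).

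Most genes of DNA replication and mitosis were lower with VPA at both ages. All 26 tested S phase genes and all 25 tested genes of G2 and mitosis were lower with VPA at P5. At 12 weeks 20 and 22 of them were lower. The change gave 0 calls in limma, against 0.528% of all genes. Cytosolic ribosomal protein genes had a VPA median of 0.04 at P5 and -0.40 at 12 weeks. All 45 had a lower VPA difference at 12 weeks, and 0 passed, against 0.528% of all genes. All 45 were lower with VPA at 12 weeks, a count that was 42 with quantile scaling and 44 with small RNA genes left out and libraries rescaled. Of 18 tested astrocyte markers 0 passed, against 0.528% of all genes, with a median change of -0.54.

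**Figure D5:**
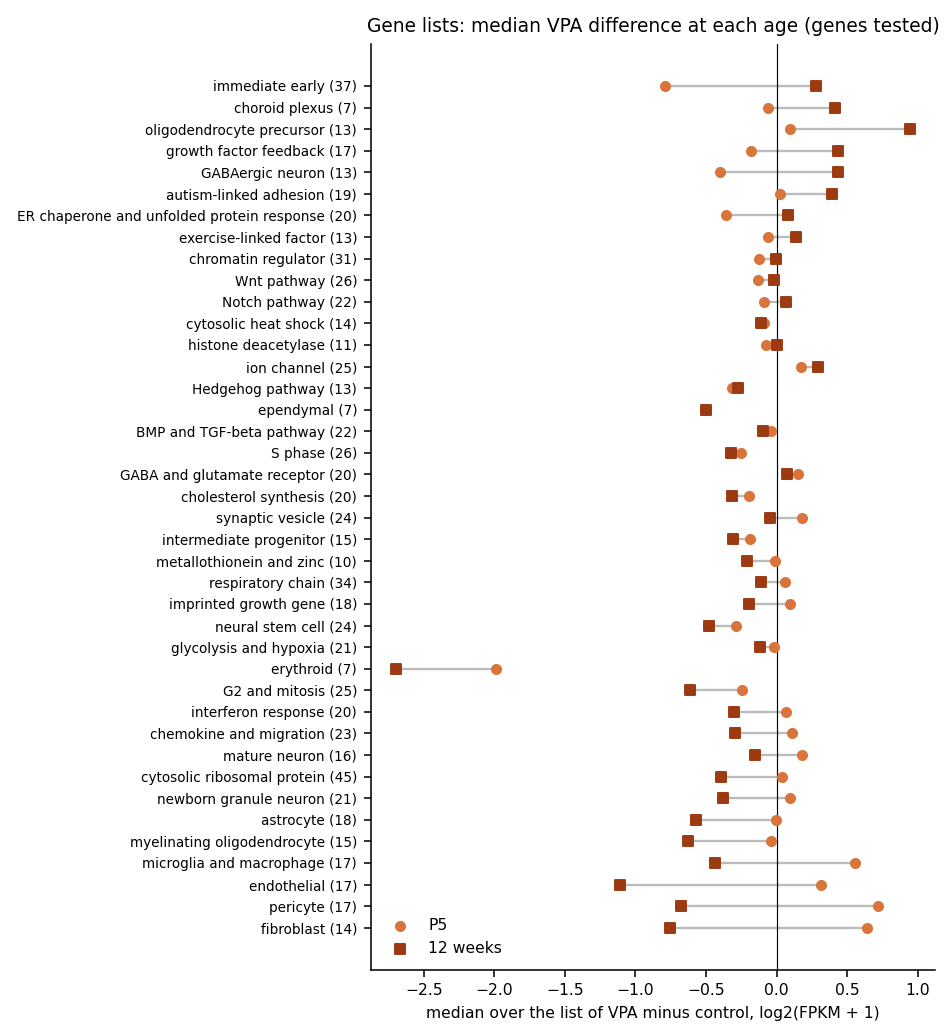
Median VPA difference of each gene list at P5 (circles) and 12 weeks (squares) on the log2(FPKM + 1) scale, with the number of genes tested in parentheses and lists ordered by their median change. The immediate early list stands lowest but for the erythroid list at P5 and above 0 at 12 weeks, and the fibroblast, pericyte, endothelial and microglia lists lie above 0 at P5 and below it at 12 weeks.

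At the edge of the threshold, B3gat1 (a change of 0.72), Trib2 (0.88) and Abcc9 (-1.99) lay just inside at a limma adjusted p of 0.0487, and Gm14379 (1.94, adjusted p = 0.05002), Zfp36l2 (1.14, 0.0513) and Shc4 (2.05, 0.0513) just outside.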

How the data were processed

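The authors deposited 1 table of FPKM values per library. FPKM is named in the file headers of the 12-week libraries, and for P5 the unit was inferred from the values. TopHat, Bowtie2, Cufflinks, Cuffdiff and mm10 are listed in the submitters' processing notes; versions, annotation and strand setting are not given in the sources used here, so antisense, overlapping and near-identical genes cannot be told apart. Depth is unknown. Levels were not compared between ages.

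Values were put on the log2(FPKM + 1) scale with a pseudocount of 1, genes at 1 FPKM or more in at least 3 of 12 libraries were kept, and limma 3.58.1 in R 4.3.3 (trend on, 4 group means, 8 residual degrees of freedom) tested the difference of VPA differences, with Benjamini-Hochberg adjustment over all 14200 genes. No 2 replicates were identical. The computation was tested on simulated data. Same-numbered libraries correlated by -0.0451 to 0.0873 in their deviations, so the numbers were not used as pairs. Named genes were the 10 largest changes per class with non-overlapping groups and a group mean of 5 FPKM or more, numbered models and small RNAs left out, up to 2 called members per list and direction, and Nes, Sox2 and Cxcr4. 1 gene that this rule names is not reported here. Members and lists were chosen with earlier results of these data known. Alternatives covered the pseudocount, filter, scaling, weights, trend, libraries fitted, replicate block, a covariate for libraries without Ddx3y, and leaving out libraries. Gene coordinates are from GENCODE vM21 on mm10.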

Additional observations from a re-analysis of the deposited data

Results flagged for a closer look

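The tests of the difference between ages themselves put 38 genes with a higher and 37 with a lower VPA difference at 12 weeks on record, 12 of the former immediate early genes. Their values are given above. No explanation was tested. Groups of 3 libraries were too small for a test of single libraries that stand apart.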

How the results depend on the processing

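Against 38 higher and 37 lower genes, weights by age gave 3 and 0 genes, weights by library 3 and 1, and the fit of 15 dentate gyrus libraries 11 and 3. A covariate for the libraries without Ddx3y gave 9 and 1, and leaving out both of those P5 controls, an alternative chosen after seeing the data, gave 0 and 1, by limma. With both controls left out, 282 genes were higher and 354 lower at an unadjusted p under 0.05; with weights by age the counts were 730 and 830, and with the block within age 890 and 1039. The fit of all 21 libraries gave 21 lower genes. A replicate block gave 17 higher and 8 lower genes, and a replicate block within age 5 and 0, but same-numbered libraries did not deviate together. Leaving out 1 library gave 9 to 195 higher and 7 to 238 lower genes. The other 9 alternatives, on pseudocount, filters, scaling, trend and small RNA genes, kept both counts within 1.5 times. Of the 75 genes, 0 changed direction in any of the 29 alternatives, and 73 lost the call in at least 1. The 75 genes were picked from these same values. Alternatives that kept the same group means, such as weights by age, no trend or added libraries, could not change a direction. Fos kept its call in 26 of the 29 alternatives, with limma adjusted p up to 0.119. With sizes of 0.25 or 1 for the sorting, 41 or 4 genes turned in place of 22. Unknown depth and 3 libraries per group limit all values; the cause of the larger spread at 12 weeks was not tested.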

Other observations

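The remaining 9 libraries of the series were outside the comparison. In the 3 libraries of VPA-exposed mice that ran, taken at 12 weeks, Fos stood at 608, 562 and 380.3 FPKM, Fosb at 102, 90.4 and 48.3 FPKM and Jun at 323, 230.4 and 269 FPKM. The Fos values of 608 and 562 FPKM lay within the range of the 12-week controls given above, and the value of 380.3 FPKM lay below it. All 3 values lay below the 12-week VPA libraries without running. Nr4a1 stood at 78.4, 54.5 and 31.2 FPKM in the running group. Of the genes lower with VPA at 12 weeks, Cntnap2 stood at 12.5, 18.5 and 20.4 FPKM with running, above the 3 VPA libraries without running and below the 3 controls. Prdm8 stood at 31.5, 40.5 and 35.1 FPKM. Neurod2 stood at 11.1, 26.6 and 21.3 FPKM and Calb2 at 142, 260.2 and 220.0 FPKM, both overlapping the VPA group without running. No test was made of these values.

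In forebrain cells at embryonic day 15 Fos stood at 14.4, 7.66 and 8.39 FPKM in control and 17.8, 22.5 and 12.4 FPKM with VPA, and Jun at 32.5, 29.9 and 25.2 FPKM in control and 33.3, 44.4 and 30.1 FPKM with VPA. Nr4a1 stood at 4.55, 3.13 and 4.44 FPKM in control and 6.70, 6.34 and 6.63 FPKM with VPA, without overlap. The order of VPA and control for Nr4a1 at this stage was thus the opposite of the order at P5. Vtn stood at 2.91 to 3.88 FPKM in control and 2.18 to 4.27 FPKM with VPA, with overlap.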
